A study of Mus musculus with 4 samples.

Results

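The genes described here supply sialic acid to the Golgi or transfer it to glycans. They are Gne, Nans, Cmas and Slc35a1 on the supply side and the sialyltransferases St3gal1, St3gal2, St3gal3, St3gal4, St3gal6 and St6gal1 on the transfer side. They were chosen by their symbol in the platform's annotation, all 10 of 10 were measured, each by 1 probe set, and the array names 19505 genes in all. RNA came from MC38 cells, a mouse colon adenocarcinoma line, and was hybridised to the Clariom S mouse array, which gives 1 summarised log2 signal per probe set. The knockout group held 2 arrays, KO T5 clone 1 and KO T5 clone 2, each a clonal line made by CRISPR-Cas9 targeting of Mgat5. The control group held 2 arrays, the empty-vector line MOCK and the untransfected line WT, neither of which is titled as a clone, so that cloning and Mgat5 loss cannot be told apart. The groups follow the sample titles, since a further label calls all of them, MOCK and WT too, knockout cells.

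Sialic acids are the acidic sugars that cap the outer ends of many N-glycans, O-glycans and glycolipids. Gne makes and phosphorylates N-acetylmannosamine from UDP-GlcNAc, Nans condenses it into phosphorylated sialic acid, Cmas activates the free sugar to CMP-sialic acid in the nucleus, and Slc35a1 carries that donor into the Golgi. There the ST3GAL enzymes join sialic acid to galactose in an alpha-2,3 linkage and ST6GAL1 joins it in an alpha-2,6 linkage. The product of Mgat5, N-acetylglucosaminyltransferase V, adds the beta-1,6 branch of N-glycans, whose galactose ends are among the places that sialic acid can cap. The series compares expression in the knockout cells with that in the controls.

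The Mgat5 signal was 7.46 in clone 1 and 7.57 in clone 2, against 8.19 in MOCK and 8.27 in WT, lower in both clones, a difference of -0.71 log2 units that did not pass the test (SE 0.37, limma adjusted p = 0.631), and of -1.11 after quantile normalization (SE 0.31, adjusted p = 0.419). The arrays did not share 1 distribution, with 75th percentiles of 9.39 and 9.60 log2 units in clone 1 and clone 2 and of 9.26 and 8.87 in MOCK and WT. The median difference of all 22206 probe sets, knockout minus control, was 0.18 log2 units as deposited and -0.02 after quantile normalization, which gives all arrays 1 distribution, so both scales are given below. The median of the 5222 negative control features, taken here as the background level, was 5.16 and 5.20 in the clones and 5.22 and 5.12 in MOCK and WT. Of 8 epithelial markers 6 lay below that level on all 4 arrays and 0 lay above the 75th percentile of those features on all 4. The same level was not reached on any array by the 5 measured leukocyte markers or the 4 endothelial ones. The summed signal of the 4 measured fibroblast markers, led by Pdgfrb, was 11.78 and 12.06 log2 units in the clones, against 11.51 and 11.46 in MOCK and WT. Pdgfrb itself differed by 0.42 log2 units as deposited and by -0.04 after quantile normalization. Col1a1 differed by 0.58 and 0.47, Col1a2 by 0.85 and 0.71 and Thy1 by -0.02 and -0.04. The Col1a2 difference came from clone 1, at 6.99, with 5.09 in clone 2 against 5.08 in MOCK and 5.29 in WT. Thy1 lay below the negative control median, as did Col1a1 in clone 1 and both controls and Col1a2 in clone 2 and MOCK. The part of these markers in the results below was not tested.

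The promoters of the genes are shown first, as a description of sequence, and were not tested against the differences between the groups. RefSeq promoter windows (GRCm38.p6, 250 bases before to 50 after a start) were found for 7 of the 10 genes, with 11 starts between them, and were not found for Nans, St3gal1 and St3gal2. Gne and St3gal6 had the largest differences among the 7. Both starts of Gne and the St3gal6 start that holds GC boxes follow, 5′ to 3′ on the strand of the gene, with GC boxes in capitals.
Gne, upstream start, chr4:44084128-44084427, minus strand: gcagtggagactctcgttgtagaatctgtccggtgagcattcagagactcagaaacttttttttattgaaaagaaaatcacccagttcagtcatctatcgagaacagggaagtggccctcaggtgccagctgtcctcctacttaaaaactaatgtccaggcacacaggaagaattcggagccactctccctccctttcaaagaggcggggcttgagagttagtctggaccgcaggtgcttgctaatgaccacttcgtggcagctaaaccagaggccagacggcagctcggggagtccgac
Gne, inner start, chr4:44072668-44072967, minus strand: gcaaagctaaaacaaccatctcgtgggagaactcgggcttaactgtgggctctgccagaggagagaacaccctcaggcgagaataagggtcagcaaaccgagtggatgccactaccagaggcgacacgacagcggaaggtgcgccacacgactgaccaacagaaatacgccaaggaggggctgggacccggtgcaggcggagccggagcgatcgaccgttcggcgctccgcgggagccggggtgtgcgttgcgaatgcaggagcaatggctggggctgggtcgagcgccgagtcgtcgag
St3gal6, inner start, chr16:58523377-58523676, minus strand: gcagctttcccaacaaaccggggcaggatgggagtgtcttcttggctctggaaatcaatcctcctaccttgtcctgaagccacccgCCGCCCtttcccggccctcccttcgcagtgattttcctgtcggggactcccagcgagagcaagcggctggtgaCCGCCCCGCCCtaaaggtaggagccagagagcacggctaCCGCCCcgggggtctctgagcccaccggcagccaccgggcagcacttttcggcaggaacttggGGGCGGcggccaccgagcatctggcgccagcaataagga
The GC box, GGGCGG on either strand, occurred 5 times in the inner St3gal6 window, one pair of matches overlapping, and in neither Gne window. The upstream St3gal6 window, not shown, held 0. It was found in 6 of the 11 windows, against 35.7% of all 32851 promoter windows of this length in the table. The hypoxia core ACGTG, searched on both strands, was found in 1 of the 11, at a start of St6gal1, against 19.6% of all windows. The E-box CACGTG, which contains that core, was in 0 of the 11 against 7.15% of all. The amino acid response core TGATGNAA, the interferon-stimulated response element and the ER stress element, on both strands, were in 0 of the 11, against 3.97%, 3.44% and 0.119% of all. These matches describe letters in the windows only.

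Most of the 10 genes had more signal in both clones than in both controls. Of the 10, 8 did so and 0 had less in both clones, where 27.8% of all probe sets had more and 11.7% had less. After quantile normalization the counts were 7 and 0, against 19.2% and 21.3% of all probe sets. None of them passed limma's test across all probe sets, a count of 0 of 10 at an adjusted p under 0.05, beside 0.0405% of all probe sets, and of 0 after quantile normalization, beside 0.0045%. At an unadjusted p under 0.05, 5 of 10 were higher in the knockout as deposited, against 7.54% of all probe sets, and 5 of 10 after quantile normalization, against 4.7%. Gne, Nans, St3gal1 and St3gal6 were among the 5 on both scales, joined by Cmas as deposited and by St6gal1 after quantile normalization. Other settings called at most 1 of the 10. Gne was the 1 with the dimmer part of the probe sets left out at the median signal (adjusted p = 0.0432, where 1.77% of all were called), with limma's trend and robust options (0.0282, beside 1.53%) and without clone 1 (0.0371, beside 2.38%). Nans was the 1 without clone 2 (0.0327, beside 0.671%). With 1 clone left out the knockout arm is a single array, assumed to vary like MOCK and WT, which alone give the spread. Without MOCK the count was 0, beside 0.0045%, and without WT it was 0, beside 0%. In RNA from whole cultures a higher level per cell cannot be told apart from more cells that express the gene.

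**Figure D1:**
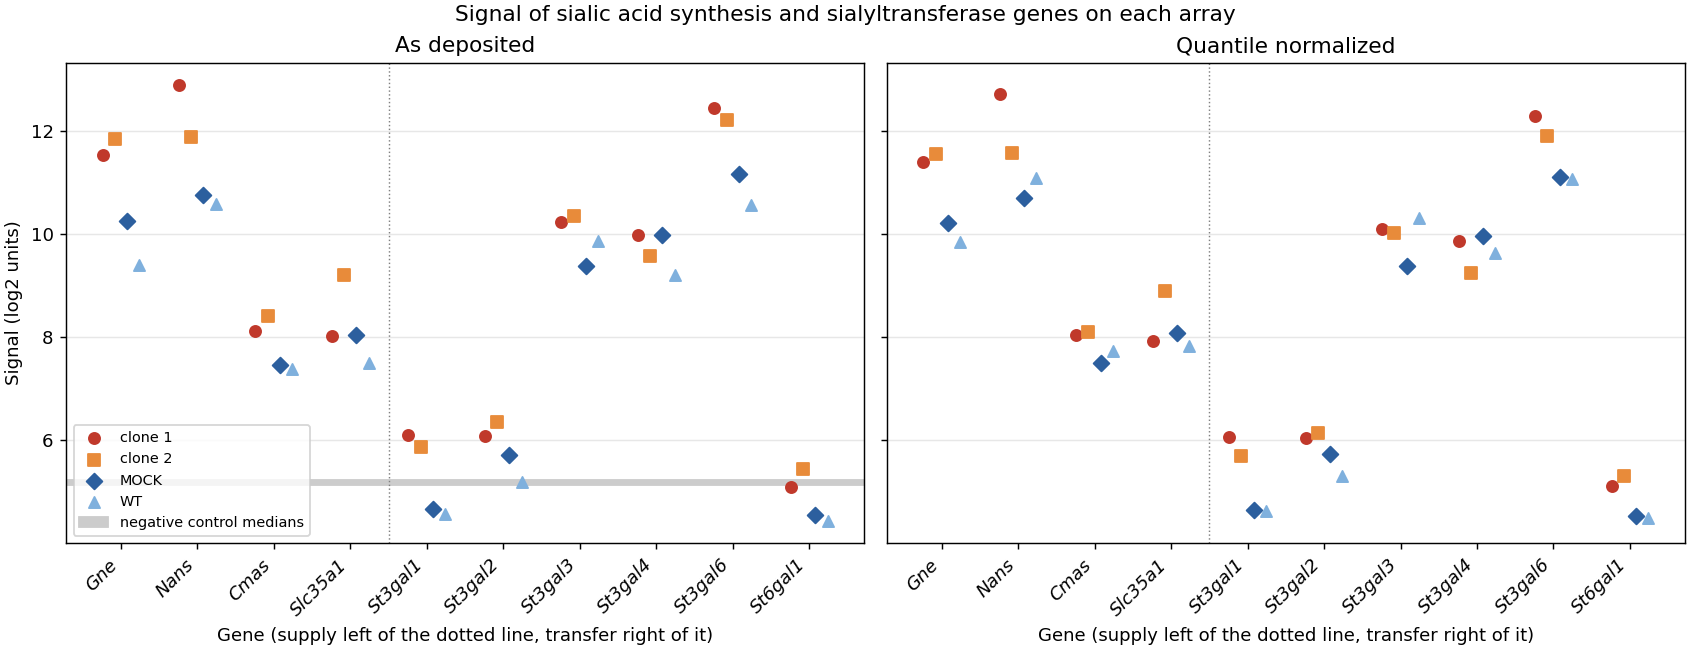
Signal in log2 units (vertical axis) of the 10 genes (horizontal axis) on the arrays of clone 1, clone 2, MOCK and WT, 1 point per array, as deposited on the left and quantile normalized on the right, with a grey band at the negative control medians of the 4 arrays on the left. As deposited, the clones lie above both controls for 8 genes, and Slc35a1 and St3gal4 overlap, while after quantile normalization St3gal3 overlaps too.

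Gne encodes the enzyme that opens the pathway and sets its pace, being inhibited by CMP-sialic acid. Its signal was 11.55 in clone 1 and 11.86 in clone 2, against 10.26 in MOCK and 9.41 in WT. Both clones lay above both controls, and the lower clone exceeded the higher control by 1.29 log2 units, more than the 0.85 between MOCK and WT. The knockout averaged 11.70 ± 0.21 and the controls 9.84 ± 0.60 (SD, n = 2 each), a difference of 1.87 log2 units (SE 0.42, limma adjusted p = 0.191), or 3.65-fold. It exceeded the difference of 99.1% of all probe sets. After quantile normalization the difference was 1.43 log2 units (SE 0.31, adjusted p = 0.3), with a gap of 1.17 between the groups.

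Nans encodes the synthase that follows. Its signal was 12.90 in clone 1 and 11.88 in clone 2, against 10.76 in MOCK and 10.60 in WT. The clones were both higher, but clone 2 stood 1.02 log2 units below clone 1, while MOCK and WT were 0.16 apart. The knockout averaged 12.39 ± 0.72 and the controls 10.68 ± 0.12 (SD, n = 2 each), a difference of 1.71 log2 units (SE 0.43, limma adjusted p = 0.257), or 3.28-fold. After quantile normalization the difference was 1.25 log2 units (SE 0.42, adjusted p = 0.496), the lower clone still exceeding the higher control by 0.48. On that scale clone 1 stood 1.82 log2 units above the control mean and clone 2 0.68.

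Cmas, which makes the CMP-sialic acid donor, had signals of 8.12 in clone 1 and 8.41 in clone 2, against 7.45 in MOCK and 7.39 in WT. Its groups did not overlap on either scale. The difference was smaller than that of Gne and Nans, at 0.85 log2 units (SE 0.37, limma adjusted p = 0.557) and at 0.46 after quantile normalization (SE 0.30, adjusted p = 0.682). Slc35a1, the Golgi transporter of the donor, had 8.02 in clone 1 and 9.21 in clone 2, against 8.04 in MOCK and 7.49 in WT. Here clone 1 lay between the controls and clone 2 alone lay above both. Its mean difference of 0.85 log2 units (SE 0.47, limma adjusted p = 0.654) was made up of 0.26 in clone 1 and 1.44 in clone 2, and of -0.04 and 0.93 after quantile normalization.

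Among the sialyltransferases, St3gal6 had the largest difference of those measured above background. The enzyme sialylates lactosamine ends and takes part in building selectin ligands. Its signal was 12.46 in clone 1 and 12.22 in clone 2, against 11.17 in MOCK and 10.57 in WT. The clones were close to each other and the groups did not overlap. The knockout averaged 12.34 ± 0.17 and the controls 10.87 ± 0.43 (SD, n = 2 each), a difference of 1.48 log2 units (SE 0.39, limma adjusted p = 0.285), or 2.78-fold. After quantile normalization MOCK and WT were 0.04 log2 units apart and the difference was 1.02 (SE 0.31, adjusted p = 0.456).

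St3gal1 encodes the enzyme that caps core 1 O-glycans. Its signal was 6.10 in clone 1 and 5.86 in clone 2, against 4.67 in MOCK and 4.56 in WT, so that both controls lay below the median of the negative control features and both clones above it. Both clones nevertheless lay below the 75th percentile of those features, which ran from 6.29 to 6.56 over the arrays, and no fold is given (limma adjusted p = 0.302, and 0.368 after quantile normalization). St6gal1, the alpha-2,6 enzyme, had 5.08 in clone 1 and 5.44 in clone 2, against 4.55 in MOCK and 4.42 in WT. Clone 2 was its only array above the negative control median, although the groups did not overlap (limma adjusted p = 0.604). St3gal2, which acts on O-glycans and gangliosides, had 6.08 in clone 1 and 6.36 in clone 2, against 5.71 in MOCK and 5.19 in WT. These groups did not overlap either, with a difference of 0.77 log2 units (SE 0.39, limma adjusted p = 0.618), and of 0.57 after quantile normalization. Its signals too lay below the 75th percentile of the negative control features.

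The remaining ST3GAL genes did not set the groups apart on both scales. St3gal3, which sialylates galactose ends of N-glycans, had 10.24 in clone 1 and 10.35 in clone 2, against 9.38 in MOCK and 9.87 in WT. The groups did not overlap as deposited, with a difference of 0.67 log2 units (SE 0.38, limma adjusted p = 0.67). After quantile normalization its signal was 10.11 in clone 1 and 10.03 in clone 2, against 9.39 in MOCK and 10.31 in WT, and WT lay above both clones. St3gal4, which acts on lactosamine ends like St3gal6, had 9.98 in clone 1 and 9.58 in clone 2, against 9.99 in MOCK and 9.22 in WT. Its groups overlapped, and the difference of 0.18 log2 units (SE 0.41, limma adjusted p = 0.937) was close to the median of all probe sets and turned to -0.25 after quantile normalization.

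The supply genes and the transfer genes overlapped in the size of their differences. The median difference was 1.28 log2 units over the 4 supply genes, with a range of 0.85 to 1.87, and 0.77 over the 6 transfer genes, with a range of 0.18 to 1.48, beside 0.18 over all probe sets. After quantile normalization the medians were 0.85 and 0.64, beside -0.02. The 12068 probe sets that reached the negative control median on at least 2 arrays had medians of 0.34 as deposited and -0.04 after quantile normalization. In clone 1 the supply median stood 1.21 log2 units above the control mean and the transfer median 0.62, beside 0.12 over all probe sets. In clone 2 they stood at 1.32 and 0.93, beside 0.24. Without St3gal1 and St6gal1, whose controls lay below the negative control median, the transfer median was 0.72 as deposited. St3gal2, with signals near that level, still enters it. These are descriptions of lists of 4 and 6 genes and carry no test.

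At least 1 log2 unit above the control mean stood 4 of the 10 genes in clone 1, against 6.31% of all probe sets, and 5 of 10 in clone 2, against 11.8%. In clone 1 these were Gne, Nans, St3gal6 and St3gal1, the last with controls below background, and in clone 2 Slc35a1 joined the same 4. After quantile normalization the counts were 4 in clone 1, against 3.94%, and 2 in clone 2, against 5.41%, with Gne and St3gal1 left in clone 2. The clones were at least 1 log2 unit apart for 2 of the 10 genes, against 12.7% of all probe sets. Those were Nans, lower in clone 2, and Slc35a1, higher in clone 2. After quantile normalization this held for 1, Nans, against 11.3%. MOCK and WT were that far apart for 0 of the 10, against 10.1%, and for 0 after quantile normalization, against 4.52%, with Gne the furthest at 0.85 as deposited. MOCK was the higher control for 9 of the 10 as deposited, against 70% of all probe sets. Single arrays have no replicate check.

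**Figure D2:**
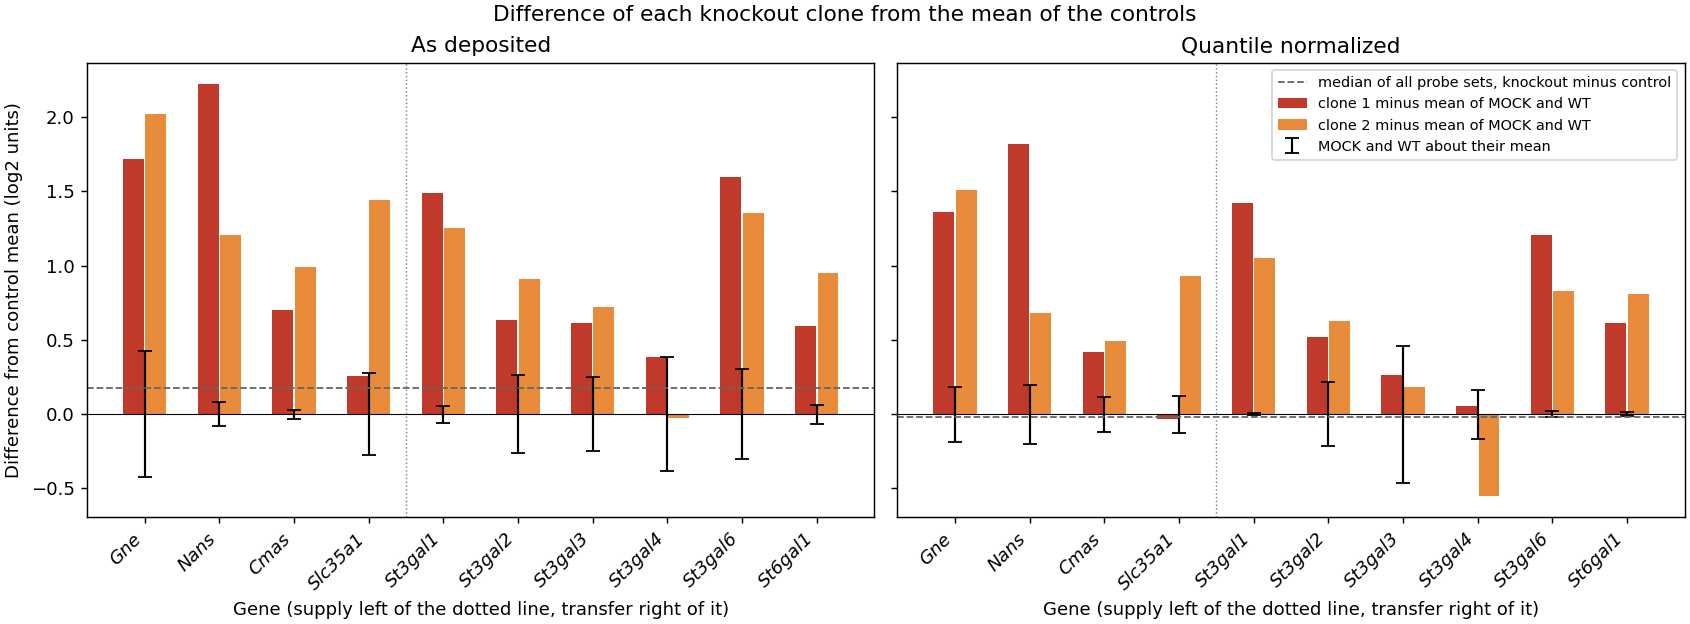
Difference in log2 units (vertical axis) of clone 1 and of clone 2 from the mean of MOCK and WT for the 10 genes (horizontal axis), as deposited on the left and quantile normalized on the right. Bars are single arrays, black ranges show where MOCK and WT lie about their own mean, and the dashed line is the median difference of all probe sets, at 0.18 on the left and -0.02 on the right. The bars of St3gal1 and St6gal1 rest on controls below the negative control median. The Nans bar is taller in clone 1 and the Slc35a1 bar taller in clone 2 on both scales.

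Gne, Nans, Slc35a1 and St3gal3 all lie on chromosome 4, and their neighbours were compared with those of the other genes. The comparison was chosen because earlier results of these data had shown a stretch of chromosome 4 with higher genes near some of them. Its counts on that chromosome therefore restate a pattern already seen in the same arrays. The genes do not form 1 local group. On chromosome 4 the promoter window of Slc35a1 begins at base 34687389, the upstream window of Gne at 44084128 and that of St3gal3 at 118134897. For each gene the 10 nearest measured genes on each side in RefSeq gene order were taken, 20 in all. Among the neighbours of Nans, 14 of 20 had more signal in both clones than in MOCK and WT. Their median difference was 0.55 log2 units, and 3 of them differed by as much as Nans or more. After quantile normalization 11 of 20 were higher in both clones, with a median of 0.35. Of these 20, 12 reached the negative control median on at least 2 arrays, which a gene can do through the clones alone. Over the 12 the median difference was 1.44 log2 units, with 10 higher in both clones. After quantile normalization the median was 0.98, with 8 higher. Among the neighbours of Gne, 10 of 20 were higher in both clones, with a median of 0.44 log2 units, and 9 of 20 after quantile normalization, with a median of 0.10. None of the 20 differed by as much as Gne, a count of 0 on either scale. Over the 13 of them that reached the negative control median on at least 2 arrays the median was 0.93 log2 units, with 9 higher in both clones. After quantile normalization the median was 0.55, with 8 higher. The counts of 20 stand beside the 27.8% of all probe sets, or 19.2% after quantile normalization, given above. All 12068 probe sets that reached that level differed by a median of 0.34 log2 units as deposited and of -0.04 once quantile normalized. Of them 33.9% were higher in both clones as deposited and 18.6% once quantile normalized.

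The neighbours of the other genes varied. St3gal3 on chromosome 4 had 12 of 20 higher in both clones, or 6 after quantile normalization, and 8 neighbours with a difference as large as its own. Slc35a1 on the same chromosome had 7 of 20, or 6 after quantile normalization. For St3gal6 on chromosome 16 the count was 6 of 20, with a median difference of 0.15 log2 units, and 0 neighbours differed by as much as St3gal6. For St3gal1 on chromosome 15 it was 4 of 20, with a median of 0.12, and 1 neighbour exceeded it. On chromosome 8 St3gal2 had 11 of 20, or 6 after quantile normalization, while St3gal4 had 8, St6gal1 6 and Cmas 5. The neighbours that reached the negative control median as above gave 11 of 14 for St3gal2 and 10 of 13 for St3gal3. Once quantile normalized these were 6 and 4. As deposited it was 6 of 13 for St3gal4, 5 of 12 for Cmas and 4 of 10 for Slc35a1. For St3gal1 it was 3 of 8, for St3gal6 2 of 9 and for St6gal1 2 of 8. Of all such probe sets the share was 33.9%, or 18.6% once quantile normalized. Of the neighbours of the 10 genes 0 passed the limma test as deposited, beside only 0.0405% of all probe sets. The part of a gene's place on its chromosome in its difference was not tested.

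**Figure D3:**
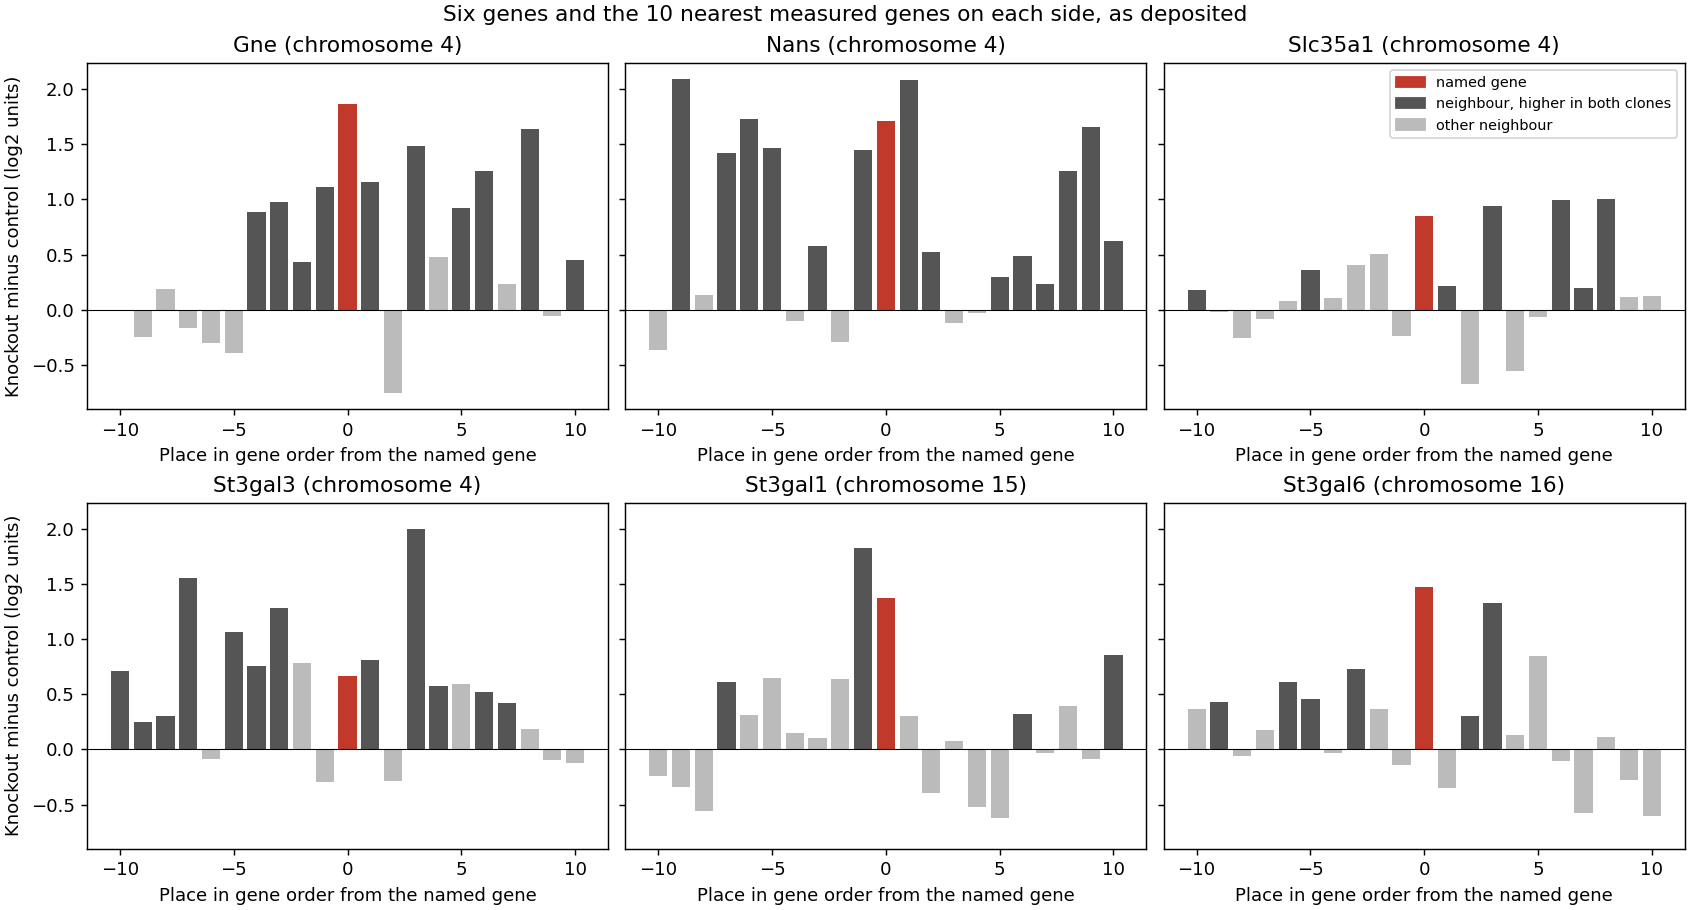
Knockout minus control difference in log2 units as deposited (vertical axis) for 6 of the genes, in red, and the 10 nearest measured genes on each side, by place in gene order (horizontal axis). Dark bars are neighbours with both clones above both controls. Of 20 these were 14 around Nans, 12 around St3gal3, 10 around Gne, 7 around Slc35a1, 6 around St3gal6 and 4 around St3gal1. St3gal2 on chromosome 8, not shown, had 11 of 20.

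None of the further genes of the sialic acid pathway passed the test, and those lower in both clones lay below the negative control median on all 4 arrays. Of 11 genes of sialic acid turnover and modification, all measured, 7 were higher in both clones as deposited and 1, Cmah, was lower, beside 27.8% and 11.7% of all probe sets, and after quantile normalization 4 were higher and 1 lower, beside 19.2% and 21.3%. Their median difference was 0.45 log2 units, beside 0.18 over all probe sets, and 0.21 after quantile normalization, beside -0.02. The 12068 probe sets that reached the negative control median on at least 2 arrays had medians of 0.34 and -0.04. Of those 12068, 33.9% were higher in both clones as deposited and 18.6% after quantile normalization. The limma test passed 0 of the 11, beside 0.0405% of all probe sets. At an unadjusted p under 0.05 were 2, both higher, beside 7.54% of all probe sets. Neu1, the lysosomal sialidase, had 7.26 in clone 1 and 7.68 in clone 2, against 6.26 in MOCK and 6.23 in WT. Its groups lay 1.00 log2 units apart, and its difference of 1.23 (SE 0.38, limma adjusted p = 0.369) was 0.89 after quantile normalization. Both of its controls lay below the 75th percentile of the negative control features, 6.56 in MOCK and 6.29 in WT.

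Ctsa, whose product protects NEU1 in the lysosome, had 15.19 in clone 1 and 15.15 in clone 2, against 14.52 in MOCK and 14.11 in WT. It was higher in both clones as deposited, by 0.85 log2 units (SE 0.38, limma adjusted p = 0.562), but not after quantile normalization, with 14.92 and 14.93 in the clones and 14.23 and 14.93 in MOCK and WT. Renbp, an N-acetylglucosamine epimerase, had 10.77 in clone 1 and 11.03 in clone 2, against 10.58 in MOCK and 9.67 in WT. The distance between MOCK and WT exceeded its difference between the groups of 0.77 log2 units (SE 0.42, limma adjusted p = 0.649). Nanp, the phosphatase that acts between Nans and Cmas, had 7.87 and 8.01 in the clones, against 7.70 and 7.33 in MOCK and WT, a difference of 0.43 log2 units that was 0.04 after quantile normalization (limma adjusted p = 0.784 and 0.978). Cmah, which turns CMP-sialic acid into its glycolyl form, lay below the negative control median on all 4 arrays.

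Of 14 other sialyltransferase genes 11 were measured, and 9 of these lay below the negative control median on all 4 arrays. The limma test passed 0 of the 11, beside 0.0405% of all probe sets, and 0 had an unadjusted p under 0.05. In both clones 1 was higher and 5 lower, beside 27.8% and 11.7% of all probe sets. After quantile normalization 1 was higher and 6 lower, beside 19.2% and 21.3%. The 5, and the 6, were among the 9 below the negative control median on all 4 arrays. The only one above that median on all arrays was St3gal5, which makes the ganglioside GM3. It had 7.84 in clone 1 and 8.76 in clone 2, against 7.59 in MOCK and 7.74 in WT. Both clones were higher as deposited, by 0.64 log2 units on average (SE 0.42, limma adjusted p = 0.717), and after quantile normalization clone 1, at 7.74, lay between MOCK at 7.62 and WT at 8.09. St6galnac1, an O-glycan sialyltransferase, lay above the negative control median in clone 1 and MOCK only, at 5.20 and 5.47, and its groups overlapped.

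**Figure D4:**
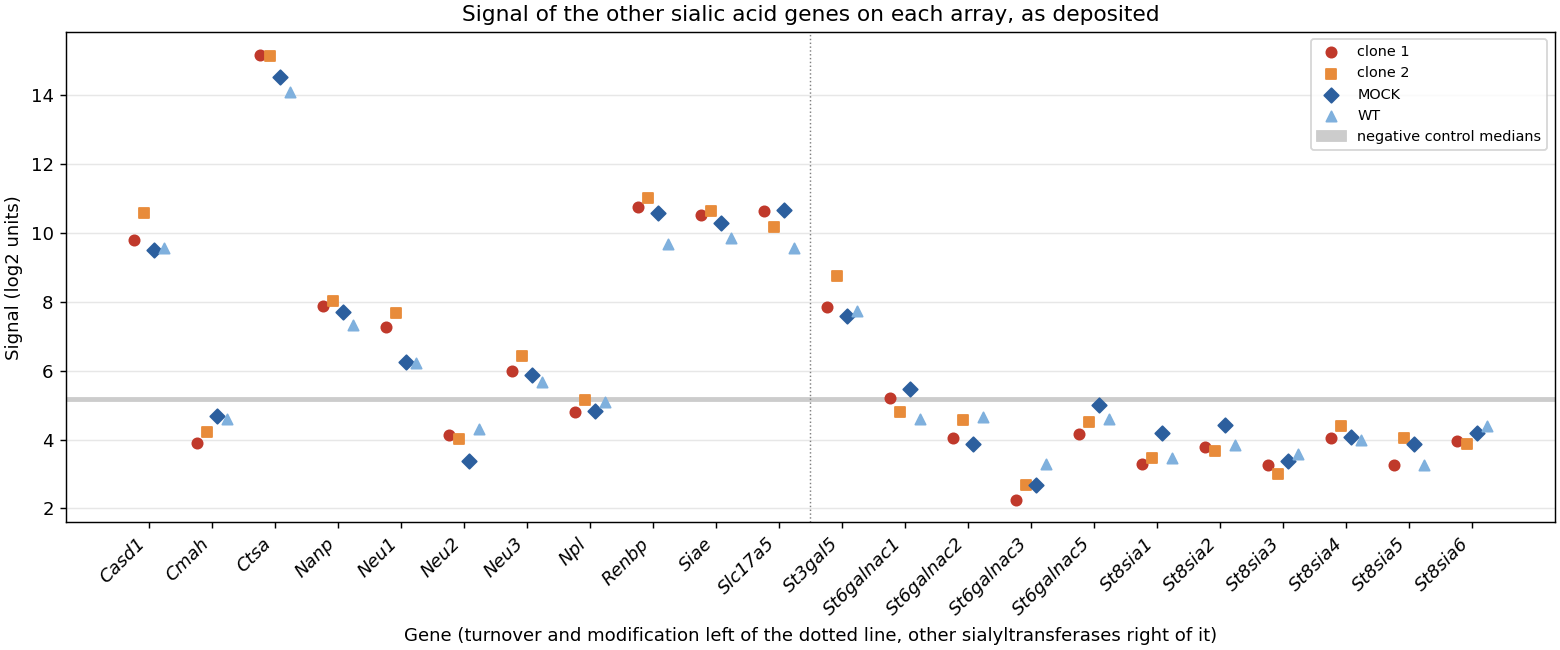
Signal in log2 units as deposited (vertical axis) of 11 genes of sialic acid turnover and modification and 11 other sialyltransferase genes (horizontal axis) in clone 1, clone 2, MOCK and WT, 1 point per array, with the negative control medians as a grey band. Neu1 shows the widest space between clones and controls among the genes above the band, and 9 of the 11 other sialyltransferases lie below it on all arrays. Both Neu1 controls lie below the 75th percentile of the negative control features.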

How the data were processed

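The Transcriptome Analysis Console was the authors' software, per the submitters' processing notes. The authors deposited a normalized signal for each feature on each array, and its range shows a log2 scale. How signals were normalized and summarised, any filter and the array's genome build are not stated in the sources used here. Of 28846 features 6640 are controls and were set aside, and 22206 probe sets entered the test without a filter. Symbols came from the platform annotation, matched by Entrez identifier to RefSeq (GRCm38.p6) for 19572 probe sets. A gene with several probe sets was represented by the one with the highest mean.

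Knockout minus control was fitted with limma 3.58.1 (lmFit, eBayes, R 4.3.3) across all probe sets on the deposited values, without covariates, and again after quantile normalization. Adjustment was by Benjamini-Hochberg, with calls at an adjusted p under 0.05. The fit was tested on simulated data. With 2 arrays a group their number limits precision. The arrays of a group came from different lines, separate clones in the knockout group and MOCK and WT in the control group. The p-values therefore measure the spread between these lines together with any technical spread. As each line has a single array and no label names separate cultures, line differences and technical spread cannot be told apart. The titles give no replicate numbers to the controls.

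The genes, lists, motifs, neighbour comparison and alternatives were chosen with earlier results of these data known. Every one of the 10 genes is named, with Mgat5, and from each further list any gene that passed the test, otherwise the 3 largest differences among genes at or above the negative control median on at least 2 arrays. Cmah, Nanp and Npl are named outside this rule, after their values were seen. Only 2 of the other sialyltransferases met it. Protein sequences were not used here. Alternatives were quantile normalization, median centring, filters on mean signal at the median and the 25th percentile, eBayes with trend and robust, and leaving out each array.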

Additional observations from a re-analysis of the deposited data

Results flagged for a closer look

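Among the 10 genes and the 22 further sialic acid genes measured, Npl, the lyase that breaks sialic acid down, was the only one whose clones lay on opposite sides of both controls as deposited. Its signal was 4.81 in clone 1 and 5.16 in clone 2, against 4.84 in MOCK and 5.09 in WT, and clone 2 minus clone 1 was 0.34 log2 units. All 4 values lay below the negative control median of their array. After quantile normalization both clones, at 4.85 and 5.03, lay between MOCK at 4.82 and WT at 5.19. The difference between the clones rests on single arrays and was not tested.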

How the results depend on the processing

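Of the 10 genes, the limma test called 1 after removal of probe sets under the median mean signal, which leaves 8 of them (Gne, adjusted p = 0.0432), and 1 with trend and robust eBayes (Gne, 0.0282), settings under which 1.77% and 1.53% of all probe sets were called. Leaving out 1 array gave counts of 0 to 1. Without clone 1, Gne was called (adjusted p = 0.0371, where 2.38% of all were called), without clone 2, Nans (0.0327, 0.671%), each with a knockout arm of 1 array and the spread from MOCK and WT alone, and without MOCK or without WT, 0. Over the alternatives the adjusted p ran from 0.0282 to 0.9996 for Gne and from 0.0327 to 0.9996 for Nans, and the cause was not tested. The other 8 genes were called under no alternative run, and neither were the further sialic acid genes. Genes higher in both clones numbered 6 (of the 8 left by the filter at the median) to 10 (without MOCK) over the alternatives. Genes lower in both numbered 0 to 1, the 1 being St3gal4 without WT. With 1 array left out the condition is easier to meet, so its counts cannot fall below those as deposited, 8 and 0. Without MOCK only WT has to be exceeded, the lower control for 70% of all probe sets. The shares of all probe sets meeting the condition with an array left out were not computed. St3gal4 turned to -0.25 after quantile normalization and ran from -0.20 to 0.56 log2 units with 1 array left out. The clone 2 medians became 0.81 for supply and 0.72 for transfer after quantile normalization, and 0.71 for transfer after median centring. Each of the 10 genes has 1 probe set, so averaging probe sets could change nothing and was not run. No paired analysis was possible because the control arrays carry no replicate numbers.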
